A study of Mus musculus with 2 samples.

Results

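The insulin-like growth factor (IGF) axis was followed through 10 genes: the ligands Igf1 and Igf2, the receptors Igf1r and Igf2r, and the binding proteins Igfbp2 to Igfbp7. The genes were picked by family name with their values on these arrays already known, opposite differences of the binding proteins included, so their values are a description and carry no test. All 10 had a value, out of 19938 genes that had a probe set assigned to a single gene symbol. Each of the 10 was represented by 1 probe set, so no second probe set of the same gene was at hand to compare with it.

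The cells came from the back skin dermis of C57BL/6 mice at postnatal day 0, and were grown for 24 h in serum-containing medium. They were then transfected for 48 h with siRNAs at 10 nM. One group received β-catenin siRNA (1 array) and the other received control siRNA (1 array), an siRNA being a short double-stranded RNA that leads to the cutting of messenger RNAs of matching sequence. Both groups were transfected. The labels name no transgene and do not say how many pups or cultures were pooled for either array.

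IGFs are small secreted hormones that signal for growth and survival through Igf1r, a receptor tyrosine kinase. Igf2r has no kinase of its own. It takes up Igf2 and mannose 6-phosphate-tagged lysosomal enzymes and carries them to lysosomes. The secreted binding proteins hold IGFs in the extracellular space, extend their life, keep them from the receptor or release them when cleaved by proteases, and some act on cells without IGFs. In skin, fibroblasts of the dermis are a source of IGFs and of binding proteins that reach the overlying epidermis and the hair follicle.

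Values are log2 robust multi-array average (RMA) values, and a difference is the β-catenin siRNA value minus the control siRNA value. There was 1 array in each group, so no difference has a replicate error, and none could be set against the spread between cultures. As a guide to scale only, each member's difference was placed beside the middle 95% of the differences of the 500 kept genes nearest to it in mean level. Kept genes were the 10197 whose higher value reached 5.13, the median of all gene means. All 10 members passed this filter, on both arrays. The median difference of the kept genes was -0.02. Ctnnb1, the targeted transcript, measured 9.34 (log2) with β-catenin siRNA, against 10.48 with control siRNA, which is 45.2% of the control signal. Of the 10 dermal fibroblast markers listed, 9 were measured and all 9 were kept. Their differences ran from -0.15 for Thy1 to 1.29 for Lum, with a median of 0.07. Of the 9, 3 were at least 1.5-fold higher (Lum, Dcn and Pdgfra), where 2.76% of all kept genes were that much higher. In such a bulk culture, fewer cells of a type and less RNA per cell cannot be told apart.

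The axis split into 3 genes with large differences and 7 with small ones. With β-catenin siRNA, Igfbp3 and Igf2r were higher by 1.5-fold or more, and Igfbp2 was lower by 1.5-fold or more. Of all kept genes, 2.76% were that much higher and 1.84% that much lower. Because the members were picked with this contrast in view, nothing is read from the comparison of these shares. The remaining 7 members lay between -0.25 and 0.19. The median difference of the 10 was 0.04 and their mean 0.21, and the SD of the differences across the genes was 1.03.

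**Figure D1:**
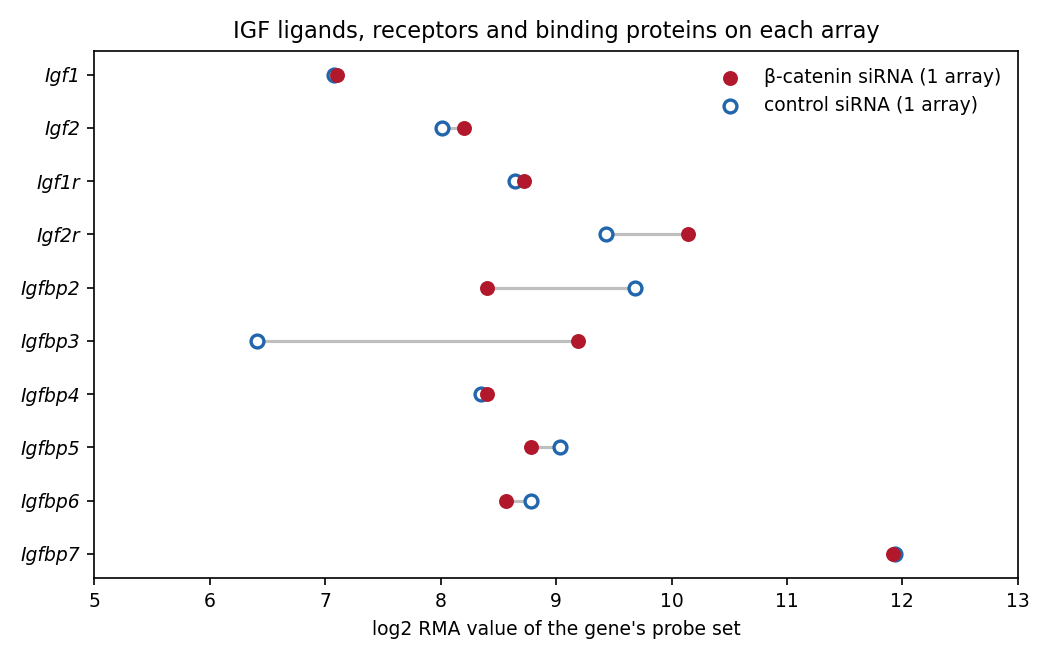
Log2 RMA value (horizontal axis) of the probe set of each of the 10 genes, with a filled red point for the single β-catenin siRNA array and an open blue point for the single control siRNA array, and a grey line joining the pair. The points of Igfbp3 lie apart at 9.19 with β-catenin siRNA and 6.41 with control siRNA, those of Igfbp2 lie apart in the other direction, and those of Igf1, Igfbp4 and Igfbp7 nearly coincide; positions of different genes are not comparable because each probe set has its own response.

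The ligand genes differed little. Igf1, the growth hormone-regulated ligand that is also made locally by fibroblasts, had a log2 value of 7.10 with β-catenin siRNA and 7.07 with control siRNA, a difference of 0.03. Igf2, the fetal ligand expressed from the paternal allele, had 8.21 with β-catenin siRNA and 8.01 with control siRNA, a difference of 0.19 or 1.14-fold. Both differences lay inside the middle 95% of genes of similar level, which ran from -0.52 to 0.47 at the level of Igf1 and from -0.46 to 0.73 at that of Igf2.

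The receptor genes differed from each other. Igf1r, the signalling receptor, had a log2 value of 8.72 with β-catenin siRNA and 8.65 with control siRNA, a difference of 0.08. Igf2r, the clearance and lysosomal sorting receptor, had 10.14 with β-catenin siRNA and 9.43 with control siRNA. That difference of 0.71, or 1.63-fold, was the 194th most positive of the 10197 kept genes, and it lay above the range of -0.55 to 0.53 of genes of similar level. The difference of Igf2r exceeded that of Igf1r by 0.63 and that of its ligand gene Igf2 by 0.52 on the log2 scale. Insr, the insulin receptor gene, which is no member but whose product can pair with Igf1r, differed by 0.16.

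The binding protein genes held both extremes. Igfbp3 encodes the main carrier of IGFs in serum, which is also secreted by fibroblasts. Its log2 value was 9.19 with β-catenin siRNA, against 6.41 with control siRNA. The difference of 2.78, or 6.88-fold, was the 6th most positive of all kept genes, where the middle 95% of genes of similar level ran from -0.48 to 0.40. Igfbp2, which encodes a binding protein abundant in the fetus that also binds integrins, had 8.40 with β-catenin siRNA, against 9.68 with control siRNA. Its difference of -1.28, or 41.3% of the control signal, was the 9th most negative of all kept genes. At 2-fold, which 0.912% of kept genes exceeded upward and 0.333% downward, Igfbp3 and Igfbp2 were the members counted, and Igf2r was not. The differences of Igfbp3 and Igfbp2 lay 4.06 apart on the log2 scale, so that the ratio of the Igfbp3 signal to the Igfbp2 signal was 16.7 times as high with β-catenin siRNA as with control siRNA.

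The other binding proteins stayed within 1.5-fold. Igfbp5, a matrix-bound protein of fibroblasts, had a log2 value of 8.78 with β-catenin siRNA and 9.04 with control siRNA, a difference of -0.25. Igfbp6, which prefers Igf2 as its ligand, had 8.57 with β-catenin siRNA and 8.78 with control siRNA, a difference of -0.21. Igfbp4, which holds IGFs away from their receptor, differed by 0.05, with 8.40 with β-catenin siRNA and 8.35 with control siRNA. Igfbp7, a relative with low affinity for IGFs, had 11.92 with β-catenin siRNA and 11.93 with control siRNA, and its difference of -0.01 turned to 0.01 with median centring and to 0.03 with lowess centring. All 4 differences lay inside the middle 95% of genes of similar level. Over the 6 binding proteins, 2 were higher and 4 lower by any amount, with a median difference of -0.11 and a mean of 0.18, so median and mean had opposite signs.

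**Figure D2:**
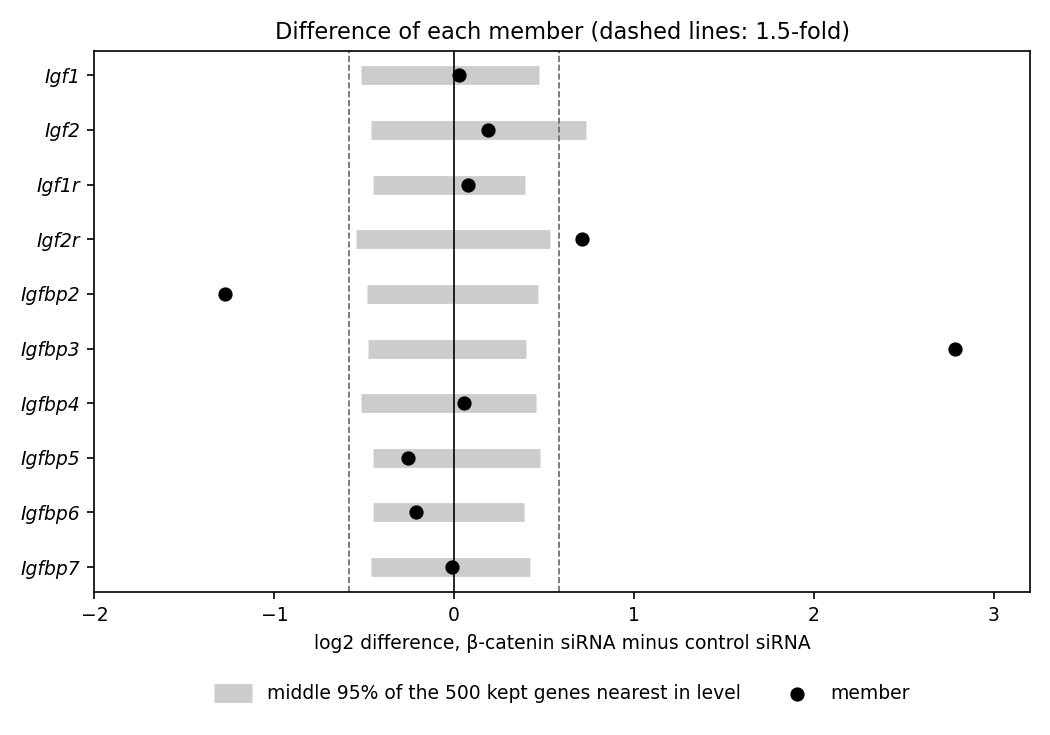
Log2 difference of each member, β-catenin siRNA minus control siRNA (black points, 1 array per group), over a grey bar that spans the middle 95% of the differences of the 500 kept genes nearest in mean level; dashed lines mark 1.5-fold. Igfbp3, Igf2r and Igfbp2 lie outside their bars and the other 7 members inside them.

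The promoter stretches of the 3 genes past 1.5-fold are shown because β-catenin acts on transcription through DNA-bound TCF/LEF factors. Each is the 250 bases before a RefSeq transcription start (GRCm38.p6), written along the gene's own strand, and the build of the array's own annotation is not given in the sources used here. RefSeq-derived windows were found for all 10 members, 14 windows in all. Capitals mark every match, on either strand, to 6 short letter patterns: the TCF/LEF core CTTTGA, the GC box GGGCGG, the E-box CACGTG, the TATA-like TATAAA and TATATA, and the AP-1 pattern TGANTCA. No match overlapped another.
Igfbp3 (chr11:7213924-7214173, minus strand): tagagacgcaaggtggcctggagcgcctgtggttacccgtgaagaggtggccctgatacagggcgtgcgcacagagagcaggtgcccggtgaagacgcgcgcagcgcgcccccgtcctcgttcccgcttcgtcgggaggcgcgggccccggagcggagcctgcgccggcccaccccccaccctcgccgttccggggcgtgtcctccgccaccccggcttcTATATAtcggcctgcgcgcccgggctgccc
Igfbp2 (chr1:72824230-72824479, plus strand): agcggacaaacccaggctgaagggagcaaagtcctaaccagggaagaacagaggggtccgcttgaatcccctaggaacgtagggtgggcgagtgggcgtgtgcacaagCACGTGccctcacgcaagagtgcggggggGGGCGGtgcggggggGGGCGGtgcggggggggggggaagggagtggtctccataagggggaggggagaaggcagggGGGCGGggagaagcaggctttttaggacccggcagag
Igf2r (chr17:12769707-12769956, minus strand): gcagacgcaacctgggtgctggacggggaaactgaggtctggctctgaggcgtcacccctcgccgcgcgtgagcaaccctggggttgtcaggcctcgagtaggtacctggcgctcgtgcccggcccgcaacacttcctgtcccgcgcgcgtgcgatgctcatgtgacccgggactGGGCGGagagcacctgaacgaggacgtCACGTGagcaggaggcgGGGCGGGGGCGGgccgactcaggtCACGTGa
Igfbp3 had a single match, TATATA, which begins 30 bases before the start. That pattern was in 5.25% of all 32851 promoter windows of this length. Igfbp2 had 3 GC boxes, which 32.7% of all windows hold at least once, and 1 E-box, and Igf2r had 3 GC boxes and 2 E-boxes. The E-box pattern was in 6.02% of all windows and in those of these 2 genes among the members. A second, downstream start of Igfbp2 had 1 AP-1 match and no other. The GC content of the printed windows was 73.2% for Igfbp3, 67.2% for Igfbp2 and 69.2% for Igf2r, where the median over all windows was 52.4%.

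The TCF/LEF core CTTTGA was in none of these 3 windows. It was in 3 of the 14 member windows and in 13.8% of all windows, and the 3 belonged to members within 1.5-fold. The 30-base stretches around these matches are given, with the pattern in capitals.
Igf1 (match begins 186 bases before the start): atgcgtggtggtCTTTGAaacatagctcag
Igf1r (match begins 89 bases before the start): cggcgtgctcggCTTTGAccttcagcgagc
Igf2 (match on the opposite strand, leftmost base 207 bases before the start): tatccccatttgTCAAAGtgtgtgacagtc
Igf2 has 4 windows in the table and the match lay in 1 of them. These matches describe letters in a short window. Other spellings of the TCF/LEF core and distant elements were not searched.

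Of the members, Igfbp2 and Igfbp5 lie next to each other on chromosome 1, and their differences were -1.28 and -0.25. Igfbp3 lies next to Igfbp1 on chromosome 11. Igfbp1, the binding protein that insulin represses in liver, was below the level filter, with a log2 value of 3.75 with β-catenin siRNA and 3.97 with control siRNA. On its other side, Tns3, which encodes the adhesion protein tensin 3, differed by 0.09. Over the nearest measured coding gene on each side of each member, 8 genes were kept and were not members themselves, and their differences ran from -0.26 to 0.48. None of the 8 reached 1.5-fold, a size that few kept genes reached in either direction (2.76% higher, 1.84% lower), so nothing is read from that count. Of these 8, those beside a member past 1.5-fold were Rpl37a, a ribosomal protein gene next to Igfbp2 with a difference of -0.26, and Tns3. Both neighbours of Igf2r, Slc22a2 and Mas1, were below the level filter.

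**Figure D3:**
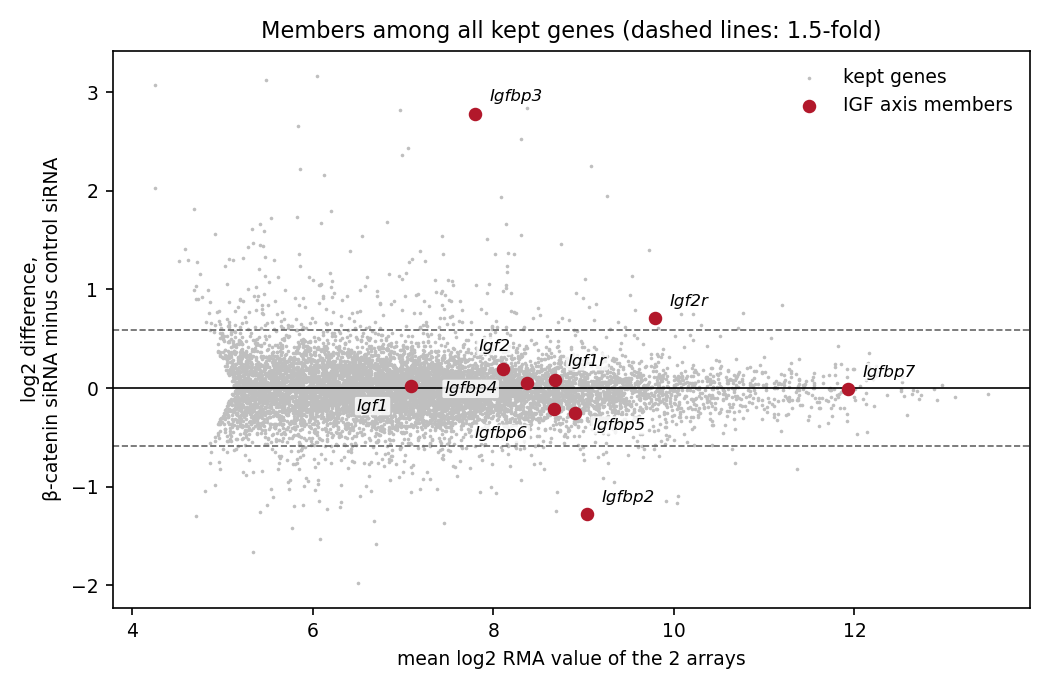
Log2 difference (vertical axis, β-catenin siRNA minus control siRNA) against the mean log2 RMA value of the pair of arrays (horizontal axis) for all 10197 kept genes in grey, with the 10 IGF axis members in red; dashed lines mark 1.5-fold. Igfbp3 at 2.78 lies near the upper edge of all genes, Igfbp2 at -1.28 near the lower edge, Igf2r at 0.71 above the dashed line, and the other 7 lie within the main band.

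Genes that surround the axis were described from lists by their counts beside the shares over all kept genes, 2.76% higher and 1.84% lower at 1.5-fold. These lists were chosen with earlier results of these data known, so nothing is read from their counts. The first list held other ligands, receptors and carriers, together with proteins that carry an IGFBP-type domain. Of its 17 genes, 16 were measured and 8 kept, with 1 higher and 1 lower at 1.5-fold and a median of -0.19. Ccn3, a matricellular protein with an IGFBP-type domain, was 1.75-fold higher, with a log2 value of 8.27 with β-catenin siRNA and 7.47 with control siRNA. Crim1, a transmembrane protein with such a domain that binds BMPs, had 9.30 with β-catenin siRNA and 9.90 with control siRNA, a difference of -0.60. Igfals, the acid-labile subunit that forms the serum complex with Igfbp3, was below the level filter, at 4.10 with β-catenin siRNA and 3.83 with control siRNA.

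Proteases that can cleave binding proteins, with their inhibitors, numbered 22, of which 18 were kept. At 1.5-fold, 3 of these were higher and 1 lower, where 2.76% of all kept genes were higher and 1.84% lower. The median was 0.08. The gelatinase gene Mmp9 was 2.57-fold higher, with a log2 value of 8.91 with β-catenin siRNA and 7.55 with control siRNA. The other gelatinase gene, Mmp2, was 1.52-fold higher (11.01 with β-catenin siRNA, 10.41 with control siRNA). Adamts1, a protease of matrix proteoglycans, was 1.68-fold higher (10.46 with β-catenin siRNA, 9.71 with control siRNA). Stc2, which encodes stanniocalcin 2, an inhibitor of the IGFBP protease Pappa, was 2.05-fold lower, with 5.50 with β-catenin siRNA and 6.54 with control siRNA. Pappa itself, named after its value was seen, differed by -0.31, and the genes of its substrates Igfbp4 and Igfbp5 are given above.

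Signalling genes downstream of the receptors showed no 1.5-fold difference. Of all kept genes, 2.76% were that much higher and 1.84% that much lower, so nothing is read from this count. Of 40 listed genes 32 were measured and 31 kept, and their differences ran from -0.58 to 0.35 with a median of 0.0. Grb14, an adaptor that inhibits insulin receptor signalling, came closest, with a log2 value of 7.35 with β-catenin siRNA and 7.93 with control siRNA. At 1.499-fold lower, Grb14 missed the 1.5-fold limit only narrowly. Pik3cb, a catalytic subunit of phosphoinositide 3-kinase, followed with -0.39. The other 8 listed genes were not analysed here.

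Of the imprinted growth genes and regulators of Igf2, 4 were at least 1.5-fold higher. Among all kept genes, 2.76% were that much higher and 1.84% that much lower. Of 13 listed genes, 10 were measured and all were kept. None was at least 1.5-fold lower, 6 lay within 1.5-fold, and the median difference was 0.28. Dlk1, a paternally expressed inhibitor of adipogenesis, was 2.23-fold higher (log2 values 7.43 with β-catenin siRNA, 6.27 with control siRNA). Mest was 1.73-fold higher (9.97 with β-catenin siRNA, 9.18 with control siRNA). Cdkn1c, a maternally expressed cyclin-dependent kinase inhibitor, was 1.69-fold higher (8.63 with β-catenin siRNA, 7.88 with control siRNA). Plagl1, a zinc finger factor known in mouse as a regulator of imprinted genes, was 1.65-fold higher (7.88 with β-catenin siRNA, 7.16 with control siRNA). Igf2 itself, at 0.19, lay below these 4 genes, and Igf2r, which is imprinted in mouse with maternal expression, differed by 0.71. H19, the noncoding neighbour of Igf2, was not analysed here.

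Genes that respond to FoxO factors or to insulin and growth factors numbered 19, of which 17 were kept. Of these, 2 were at least 1.5-fold higher and none was that much lower, with a median of 0.23. Of all kept genes, 2.76% were that much higher and 1.84% that much lower. By any amount, 12 of the 17 were higher and 5 lower. The list was not split by the direction in which its genes respond, so its median is no measure of signalling. Spry2, a feedback inhibitor of receptor tyrosine kinase signalling, was 1.96-fold higher, with a log2 value of 8.41 with β-catenin siRNA and 7.44 with control siRNA. Spry4, of the same family and list, differed by -0.41. Cited2, a transcriptional coregulator, was 1.59-fold higher (9.72 with β-catenin siRNA, 9.05 with control siRNA). Irs2, an insulin receptor substrate that is in this list and in that of the signalling genes, differed by 0.23.

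**Figure D4:**
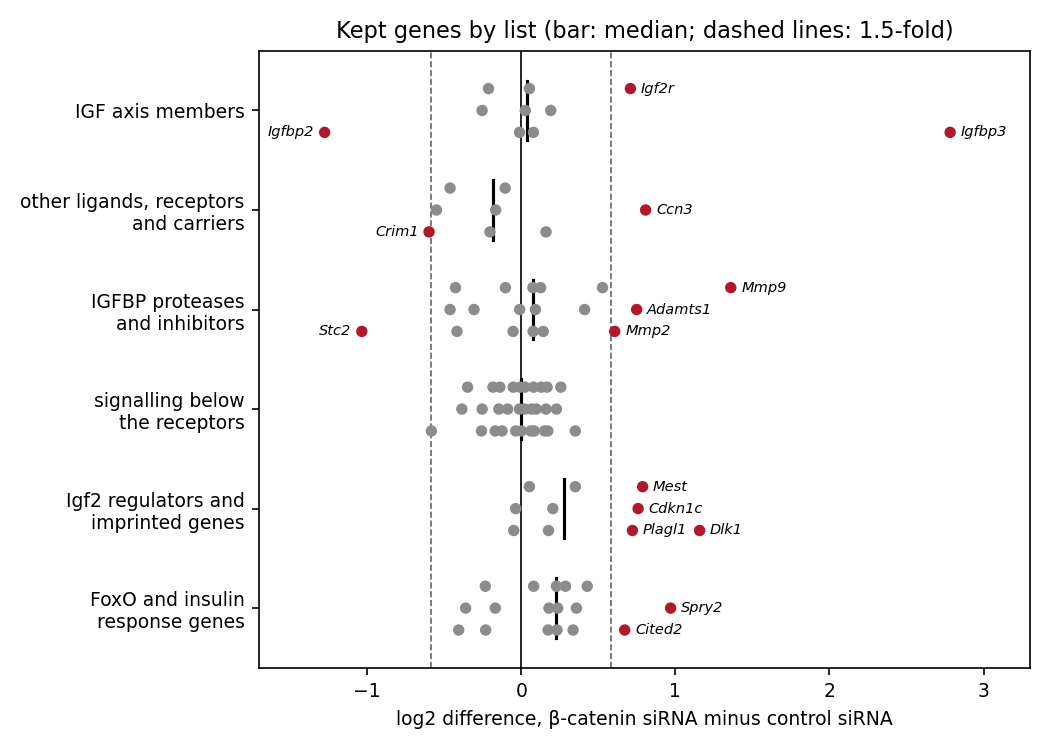
Log2 differences (β-catenin siRNA minus control siRNA, 1 array per group) of the kept genes of each list; each point is a gene, red and named where it is at least 1.5-fold apart, the black bar is the list's median and dashed lines mark 1.5-fold, with vertical offsets only to separate points. The members span from -1.28 to 2.78. All 31 kept signalling genes lie within the dashed lines, Grb14 only just. Of the 10 kept imprinted genes and regulators of Igf2, 4 lie to the right of the dashed lines and 6 within them.

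Some markers of other skin cell types differed between the arrays and others did not. Their counts stand beside the shares over all kept genes, 2.76% higher and 1.84% lower at 1.5-fold. Of 10 keratinocyte markers, all were measured and 5 kept, with 3 at least 1.5-fold higher (Krt5, Krt14 and Cdh1) and 1 lower (Itga6). The summed signal of the 10 keratinocyte markers on the linear scale was 1134 with β-catenin siRNA and 816 with control siRNA. It includes markers below the level filter. Each such sum is weighted towards the brightest probe sets, here Krt5 and Krt14, so it does not measure the amount of a cell type. The summed signal of the 9 fibroblast markers was 28785 with β-catenin siRNA and 27052 with control siRNA. The 6 pericyte and smooth muscle markers summed to 714 with β-catenin siRNA and 960 with control siRNA, and 1 of the 4 kept, Myh11, was at least 1.5-fold lower, while Mcam differed by -0.42. Of 5 melanocyte markers 3 were kept, with differences of -0.38 (Tyrp1), -0.27 (Pmel) and -0.01 (Dct), and the 5 summed to 135 with β-catenin siRNA and 162 with control siRNA. The single kept myeloid marker, Lyz2, was 1.55-fold higher and the single kept endothelial marker, Kdr, differed by -0.51. Lyz2, Kdr and Pmel each passed the filter only on the array where it was higher, so nothing is read from their directions. The other myeloid markers, all below the filter, had negative differences, from -0.49 (Ptprc) to -0.01 (Csf1r). Those of the other endothelial markers, also below it, ran from -0.28 (Vwf) to 0.70 (Tek). The 7 myeloid markers summed to 115 with β-catenin siRNA and 111 with control siRNA, and the 7 endothelial markers to 137 with β-catenin siRNA and 142 with control siRNA. No skeletal muscle, adipocyte or Schwann cell marker was kept. RMA values have no 0, so no marker could be called absent. The part of these markers in the differences of Igfbp3, Igfbp2 and Igf2r was not tested.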

How the data were processed

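Affymetrix whole-transcript arrays were hybridised with RNA of cells given β-catenin siRNA (1 array) or control siRNA (1 array). The authors deposited 1 log2 value per probe set and array. The submitters' processing notes name RMA, which corrects background, equalises the distributions of the arrays and summarises probes, and the software is not given in the sources used here. The log2 scale was judged from the range, 0.485 to 13.5. RMA removes an overall difference between arrays and shrinks differences of dim probe sets. Of 28944 probe sets, 21789 had 1 gene symbol, and 21698 of these received current symbols through gene identifiers in a RefSeq table of GRCm38.p6. Where a gene had several, the probe set with the highest mean stood for it. Probe sets without a single symbol were not used.

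Values were subtracted in Python 3.11.15 with pandas 2.3.3. A gene was kept if its higher value reached 5.13, and a size of 1.5-fold was counted. No p-value can be had from 1 array per group, and their number limits the precision. For 594 genes, more than 1 probe set had a higher value that reached 5.13. Within these genes, the differences of such probe sets had a pooled SD of 0.16. Probe sets below that level were left out of this SD. Named genes were all members, the target and, from each other list, all kept genes past 1.5-fold, or the 2 largest differences where fewer than 2 were. Insr, Igfbp1, Igfals, Irs2, Spry4, Pappa, the flanking genes and the transcripts of the members' loci fall outside this rule. They were named after their values were seen. Cell type markers were named from their own lists. A planned naming of genes by nearness in the pair of values is not reported, because levels of different probe sets are not comparable. Members, lists, filter, fold size and motifs were chosen with earlier results of these data known. Alternatives were mean of probe sets, median centring, lowess centring (span 0.3, statsmodels 0.14.6), 2-fold and 2 other level filters. The counting and the motif search were tested on simulated data with known answers.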

Additional observations from a re-analysis of the deposited data

How the results depend on the processing

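Results were recomputed with probe sets averaged per gene, median centring, lowess centring, a 2-fold size, no level filter, and a filter that both arrays had to pass. Each of the 30 recomputed member differences moved by at most 0.04. For scale, the robust SD of the difference over kept genes was 0.22. That SD is a spread across genes within 1 pair of arrays and does not measure variation between cultures. Median centring moved every gene by the same 0.02, so its small shift was set in advance. The sign of Igfbp7, close to 0, turned with both centrings. The mean of probe sets gave identical values, since each member has 1. The count of members that were higher was 1 at 2-fold, against 2 at 1.5-fold, because Igf2r is 1.63-fold higher. The count that were lower was 1 in all settings. Every member passed the level filter on both arrays, so the other level filters could not change either count. The difference between Igfbp3 and Igfbp2 was 4.05 with lowess centring. No paired analysis was possible because each group has 1 array, and for the same reason no replicate could be left out. Whether any difference would recur in another pair of cultures cannot be read from these arrays.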

Other observations

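Transcripts that share a locus with the members were also on the array. Igf1os, annotated opposite Igf1, had a log2 value of 2.04 with β-catenin siRNA and 2.15 with control siRNA, below the level filter. Airn, the noncoding RNA antisense to Igf2r, had 5.09 on both arrays, just below the filter. Mir483, which lies within Igf2, had 5.86 on both arrays.

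The 2 values of Mir483 were identical to the last deposited digit. Identical pairs made up 6.50% of all 28944 probe sets, 10.8% of those below the level filter and 1.45% of those at or above it. None of the 10 members had an identical pair. The 2 probe sets of Igf2bp1, an RNA-binding protein named for its binding of Igf2 transcripts, gave different answers: the brighter differed by -0.04 and the dimmer, below the filter, by 0.54.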
